A study of Mus musculus with 6 samples.

Results

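The mitochondrial chromosome of the mouse carries 37 genes, and all of them were examined here as the genes whose GENCODE vM21 symbol starts with mt-, out of 50686 gene identifiers in the count files. They comprise 13 protein-coding genes, 2 rRNA genes and 22 tRNA genes, with 28 on the plus strand and 9 on the minus strand. RNASeq was available for NSC, primary neural stem cells taken from the cerebral hemispheres of wild-type embryos at E16.5, in 2 cultures that the study calls biologically independent. It was also available for 2 cultures with the label NSC Bmi1Over, which came from embryos of that age with the genotype STOPFloxBmi1;NestinCre. In the latter, Cre under the Nestin promoter removes a stop cassette in front of a Bmi1 transgene, Bmi1 being a Polycomb group protein. For both conditions, 1 ChIPSeq library for H3K27me3, the histone mark of Polycomb repression, was also available. The methods describe growth of such cells as neurospheres or as adherent monolayers, and the labels do not say which was used for each library.

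The mitochondrial genome is a small circle that is present in many copies per cell. It is transcribed from both strands by the polymerase Polrmt with the factors Tfam and Tfb2m into long precursors, and the tRNAs that lie between most of the other genes are cut out to release the mRNAs and rRNAs. Its protein-coding genes encode subunits of the respiratory chain complexes I, III and IV and of the ATP synthase, complex V, which are assembled with subunits encoded in the nucleus, and its rRNAs belong to the mitochondrial ribosome.

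The libraries held 18112100 to 61353076 counted reads, and the largest was NSC Bmi1Over replicate 2. Bmi1 itself was measured at 133.3 and 123.5 CPM (reads on the gene relative to the library size, scaled by the trimmed mean of M-values, TMM) in NSC and at 118.6 and 112.6 CPM in NSC Bmi1Over, a log2 fold change of -0.15 with an adjusted p of 0.463 in edgeR (quasi-likelihood F-test, p-values adjusted over all genes tested by the Benjamini-Hochberg procedure), so that the label is not reflected in the Bmi1 counts and the libraries are named by their labels throughout. Genes with an adjusted p under 0.05 over all genes tested are referred to as called. Over all genes tested, 2.03% were called higher and 0.122% lower in NSC Bmi1Over. Of the 10 neural stem cell markers tested, none was called between the groups, and Nes was at 915.1 to 1148 CPM. Of these 10, 6 had estimates below 0, and the median of the list was -0.18. The estimates ran from -0.74 for Hes5 (adjusted p = 0.132) to 0.46 for Slc1a3 (adjusted p = 0.257). Of 6 neuronal markers, Syt1 was called higher and 4 had estimates below 0, the lowest being Snap25 at -0.48 (adjusted p = 0.267), with the median of the list at -0.14 and the sum of the list at 945.9 to 970.6 CPM in NSC and 926.2 to 1012 CPM in NSC Bmi1Over. Of 4 astrocyte markers, Aldh1l1 was called lower, at 94.2 to 122.2 CPM in NSC and 53.3 to 66.0 CPM in NSC Bmi1Over, and made up most of the list's sum of 110.5 to 140.4 CPM and 65.03 to 84.6 CPM, while Gfap was at a log2 fold change of 0.03 and Aqp4 at -0.06. Of 5 oligodendrocyte markers, 3 were tested and 0 called, with sums of 11.4 CPM in both NSC libraries and 9.997 and 14.96 CPM in NSC Bmi1Over. The lists for microglia, endothelium, erythroid and mesenchymal cells had 1 gene each with enough reads and sums of at most 3.17 CPM, and Alas2 was the only erythroid gene above 0. The part of these cell types in the mitochondrial values was not tested.

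The mitochondrial genome also has copies in the nuclear chromosomes, and these bear on what can be counted. In the GRCm38 reference, the 4649 bases at chrM:6394-11042, or 28.5% of the 16299 bases of the chromosome, recur on the minus strand of chromosome 1 at chr1:24611535-24616184. This stretch runs from within mt-Co1 to within mt-Nd4. The following sequences, read 5′ to 3′ from the RefSeq GRCm38.p6 genome, show how it begins, with the first bases of the shared stretch in capitals.
chrM:6374-6424, plus strand: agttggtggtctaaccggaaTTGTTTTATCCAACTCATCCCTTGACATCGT
chr1:24616154-24616204, minus strand: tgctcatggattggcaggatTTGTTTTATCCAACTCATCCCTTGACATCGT

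Between both copies there was 1 substitution, T9461C, counted from 1 at the start of the mitochondrial chromosome and written with the mitochondrial base first. It falls on position 3 of mt-Nd3 and is the only base in capitals in the following sequences.
chrM:9441-9481, plus strand: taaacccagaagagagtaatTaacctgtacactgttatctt
chr1:24613097-24613137, minus strand: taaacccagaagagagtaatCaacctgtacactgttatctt

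The other difference was the length of a run of A inside mt-Tr, the tRNA for arginine, with 8 bases in the mitochondrial and 9 in the nuclear copy, shown in capitals.
chrM:9806-9844, plus strand: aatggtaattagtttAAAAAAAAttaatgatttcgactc
chr1:24612733-24612772, minus strand: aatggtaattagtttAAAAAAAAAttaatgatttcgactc

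A read that lies within this stretch and spans neither difference therefore matches both chromosomes equally. STAR counts on genes only reads with a single place in the genome, and reads mapped to several places took between 4.06% and 4.78% of all reads in the 4 libraries. Over the whole chromosome, 7200 bases lie in an exact match of at least 50 bases to a nuclear chromosome, of which 4648 belong to the chromosome 1 stretch. The longest of the other matches has 242 bases.

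The protein-coding genes fell into 2 sets by their counts. In every library, 7 of the 13 had more than 1000 counts, namely mt-Nd1, mt-Nd2, mt-Nd4, mt-Nd5 and mt-Nd6 of complex I, mt-Cytb of complex III and mt-Co1 of complex IV. The other 6 had fewer than 50 counts in every library. These were mt-Co2 and mt-Co3 of complex IV, mt-Atp8 and mt-Atp6 of complex V, and mt-Nd3 and mt-Nd4l of complex I. These 6 lie wholly within the stretch copied on chromosome 1, whereas of the 7 abundant genes only mt-Co1, with 31.0% of its length, and mt-Nd4, with 63.6%, reach into it.

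For mt-Co2, 5 and 6 reads were counted in NSC and 9 and 36 in NSC Bmi1Over. For mt-Nd3, which holds the substitution, the counts were 13 and 7 in NSC and 9 and 49 in NSC Bmi1Over. A single read was counted on mt-Atp8 and on mt-Co3, both in NSC Bmi1Over replicate 2, and mt-Atp6 and mt-Nd4l were at 0 in all 4 libraries. A count of 0 allows a level of up to 0.0489 to 0.166 CPM without TMM scaling, depending on the library, and holds for uniquely mapped reads only. The 7 pseudogenes annotated over the chromosome 1 copy were near 0 as well. The highest of them, Gm29216, which reaches past the end of the copy, had 23, 31, 31 and 102 counts, and Gm28437 and Gm10925 had 1 count each over all libraries. Levels of the 6 genes can thus not be read from these counts.

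**Figure D1:**
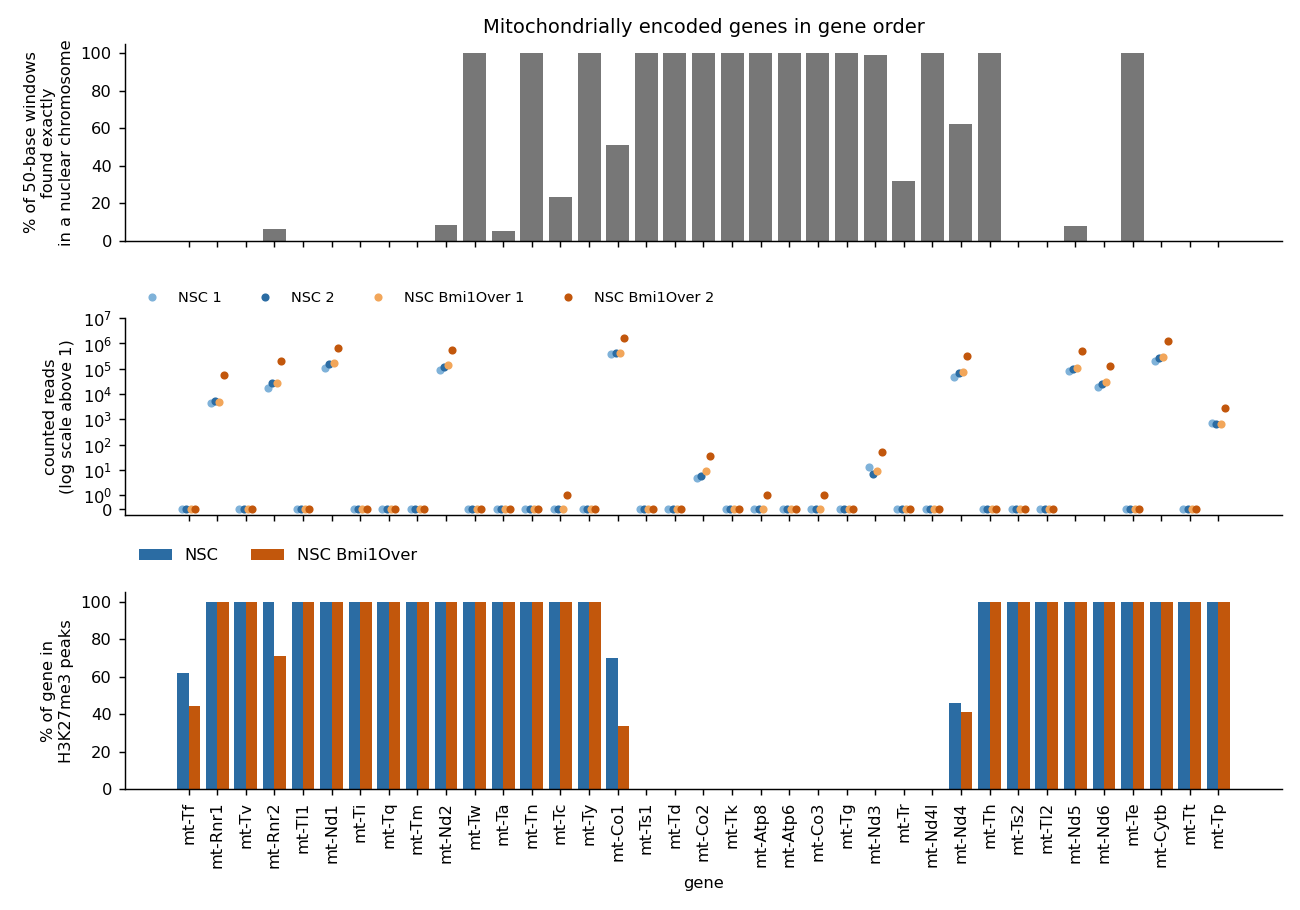
For the 37 mitochondrially encoded genes in gene order, the plot gives the share of 50-base windows found exactly in a nuclear chromosome (top), the reads counted in each library on an axis that is logarithmic above 1 (middle, points) and the share of the gene covered by H3K27me3 peaks in the 1 list of each condition (bottom). Genes between mt-Ts1 and mt-Nd4l have at most 49 counts in any library and 0% of their length in peaks.

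Of all counted reads, mitochondrially encoded genes took 3.24% and 4.77% in NSC replicates 1 and 2 and 6.92% and 8.69% in NSC Bmi1Over replicates 1 and 2. Both libraries labelled NSC Bmi1Over were above both NSC libraries. These shares hold uniquely mapped reads only, and the mitochondrial part of the reads mapped to several places was not measured. The means were 4.0% ± 1.08 (SD, n = 2) and 7.80% ± 1.25 (SD, n = 2), a 1.95-fold difference. The exact two-sided permutation test gave p = 0.33, the smallest value that 2 libraries against 2 allow, so this test cannot separate the groups. Counting error was small beside the spread between cultures, the exact 95% binomial interval for NSC replicate 1 running from 3.23% to 3.24%. Counts cannot tell more mitochondrial RNA per cell from less nuclear RNA per cell.

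The share of reads that STAR could not map ranked the libraries in the same order, with 11.2% and 13.7% in NSC and 16.2% and 17.6% in NSC Bmi1Over, and its part in the difference was not tested. Reads mapped to no annotated gene did not follow that order, with 8.41% and 8.18% in NSC and 7.80% and 8.89% in NSC Bmi1Over. Set against all reads, unmapped ones included, the mitochondrial share was 2.34% and 3.33% in NSC and 4.71% and 5.72% in NSC Bmi1Over.

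Mitochondrially encoded genes were also prominent among the most abundant genes. In all 4 libraries the highest gene was mt-Co1 and the second mt-Cytb. The 10 most abundant genes included 4 mitochondrial genes in NSC replicate 1, 5 in NSC replicate 2 and 6 in both libraries labelled NSC Bmi1Over, the additions being mt-Nd5 and then mt-Nd4. These mitochondrial genes made up 50.8% and 65.7% of the reads of the 10 genes in NSC and 76.8% and 80.0% in NSC Bmi1Over. The 10 genes together took 5.23% and 6.48% of the counted reads in NSC and 8.57% and 10.1% in NSC Bmi1Over, whereas the nuclear genes among them, Eef1a1, Scd2, Serpine2, Xist, Ckb, Ptprz1 or Ptn, took 2.57% and 2.22% in NSC and 1.99% and 2.02% in NSC Bmi1Over. These nuclear sums rest on fewer genes where more of the 10 were mitochondrial. At a fixed number, the 10 most abundant nuclear genes took 3.52% and 3.61% of the counted reads in NSC and 3.85% and 3.79% in NSC Bmi1Over, and of the reads on nuclear genes 3.64% and 3.79% against 4.14% and 4.15%, so that this share was also larger in both libraries labelled NSC Bmi1Over.

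**Figure D2:**
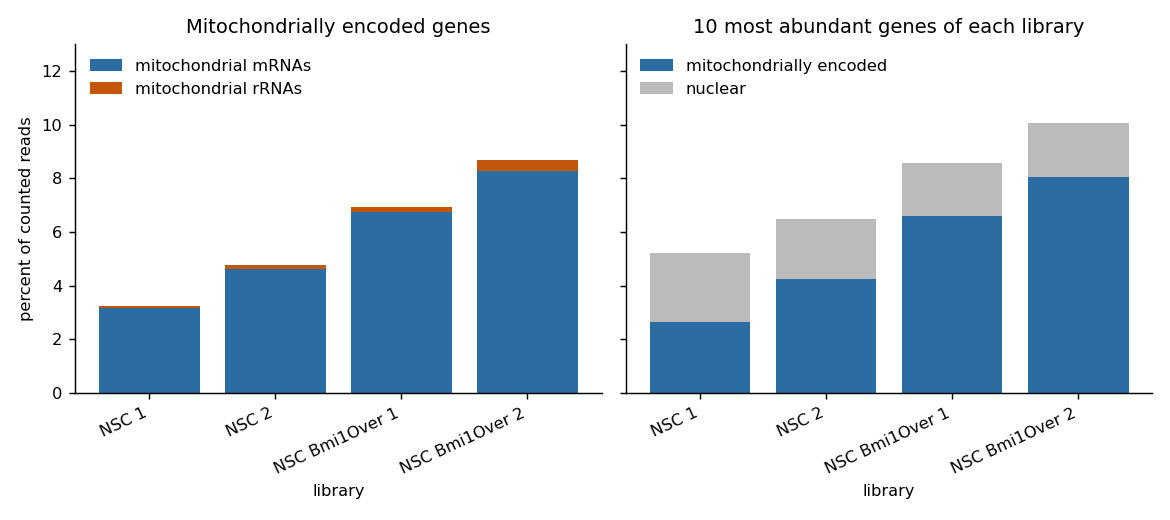
Bars give the percent of counted reads in each of the 4 libraries on mitochondrial mRNAs and rRNAs (left) and on the 10 most abundant genes, split into mitochondrially encoded and nuclear (right). The mitochondrial part lies between 3.24% in NSC replicate 1 and 8.69% in NSC Bmi1Over replicate 2, and the nuclear part of the 10 genes lies between 1.99% and 2.57%.

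Among the complex I subunits, mt-Nd1 was at 3445 and 6003 CPM in NSC and at 9633 and 11812 CPM in NSC Bmi1Over, a log2 fold change of 1.18 (SE 0.35) with an adjusted p of 0.0940 in edgeR. mt-Nd2 was at 2841 and 4692 CPM in NSC and at 8010 and 9667 CPM in NSC Bmi1Over, a log2 fold change of 1.23 (SE 0.32, adjusted p = 0.0786). Neither passed the threshold of 0.05, although the groups did not overlap for either gene. mt-Nd4 was at 1560 and 2660 CPM in NSC and at 4273 and 5857 CPM in NSC Bmi1Over, a log2 fold change of 1.26 (SE 0.32, adjusted p = 0.0722). mt-Nd5 was at 2480 and 4041 CPM in NSC and at 6237 and 8792 CPM in NSC Bmi1Over, a log2 fold change of 1.20 (SE 0.33, adjusted p = 0.0853). All 4 genes had the same order of libraries, with NSC replicate 1 lowest and NSC Bmi1Over replicate 2 highest.

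mt-Nd6 is the only protein-coding gene on the minus strand, and its end overlaps that of mt-Nd5 by 14 bases, given in capitals in the sequence below. It was at 624.0 and 1013 CPM in NSC and at 1652 and 2322 CPM in NSC Bmi1Over, a log2 fold change of 1.28 (SE 0.28, adjusted p = 0.0576). The 2 strand columns of the count files were nearly equal for mt-Nd6, with 49.5% of the reads in one of them, so that the libraries carry no strand information and reads of mt-Nd6 cannot be told apart from reads of the opposite strand.
chrM:13540-13577, plus strand: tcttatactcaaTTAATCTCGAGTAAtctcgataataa

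mt-Nd4 also overlaps its neighbour mt-Nd4l, by 7 bases in capitals in the next sequence, on the same strand. Both genes share these bases in one mRNA, of which mt-Nd4l had 0 counts and mt-Nd4 at least 49215, mt-Nd4l lying wholly in the stretch with the nuclear copy.
chrM:10155-10185, plus strand: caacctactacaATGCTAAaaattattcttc

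In complex III, mt-Cytb, the cytochrome b subunit, was at 6646 and 10681 CPM in NSC and at 16896 and 20990 CPM in NSC Bmi1Over, a log2 fold change of 1.13 (SE 0.37, adjusted p = 0.114). In complex IV, the catalytic subunit mt-Co1 was the most abundant gene of all, at 11777 and 15983 CPM in NSC and at 23054 and 29328 CPM in NSC Bmi1Over. Its log2 fold change of 0.92 (SE 0.37, adjusted p = 0.179) was the lowest among the 7 abundant mRNAs. The few reads of mt-Co2 gave a log2 fold change of 1.58 (SE 0.47, adjusted p = 0.0957) and those of mt-Nd3 one of 1.06 (SE 0.44, adjusted p = 0.188), both resting on fewer than 50 counts per library and on the scarce reads that could be placed uniquely.

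The rRNAs had the largest estimates. mt-Rnr1, the rRNA of the small subunit of the mitochondrial ribosome, was at 141.7 and 216.3 CPM in NSC and at 266.7 and 999.0 CPM in NSC Bmi1Over, a log2 fold change of 1.82 (SE 0.51, adjusted p = 0.0874). mt-Rnr2, the rRNA of the large subunit, was at 548.1 and 1064 CPM in NSC and at 1551 and 3459 CPM in NSC Bmi1Over, a log2 fold change of 1.64 (SE 0.42, adjusted p = 0.0745). For mt-Rnr1, NSC Bmi1Over replicate 2 was 3.75 times replicate 1 of the same label, more than the distance of replicate 1 from either NSC library. Without NSC Bmi1Over replicate 2, the log2 fold change was 0.58 for mt-Rnr1 and 0.95 for mt-Rnr2.

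Among the tRNAs, mt-Tp, the proline tRNA, was the only one with enough reads in the unstranded counts, at 22.2 and 26.7 CPM in NSC and at 37.4 and 49.7 CPM in NSC Bmi1Over. Its log2 fold change of 0.84 (SE 0.17) had an adjusted p of 0.0476 in edgeR and was the only one of the mitochondrially encoded genes past the threshold. It lost this call without NSC replicate 1 (adjusted p = 0.127) and without NSC Bmi1Over replicate 2 (adjusted p = 0.0939), and likewise with DESeq2 size factors (adjusted p = 0.0554), with at least 10 counts in every library (adjusted p = 0.0512) and in the sum of the strand columns (adjusted p = 0.0513). Reads of its own strand cannot be told apart from those of the opposite strand here. It lies on the minus strand at the end of the gene-bearing part of the chromosome, and its 67 bases are given here in the direction of the gene with the anticodon in capitals.
mt-Tp, chrM:15356-15422, minus strand: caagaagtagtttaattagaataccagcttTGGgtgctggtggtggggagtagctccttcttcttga

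The remaining tRNAs could not be assessed from the unstranded column. For 20 of the 22, no read was counted in any library in the unstranded column, and mt-Tc had 1 read. No statement on mature tRNAs follows from this, as such short molecules need a library preparation of their own.

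**Figure D3:**
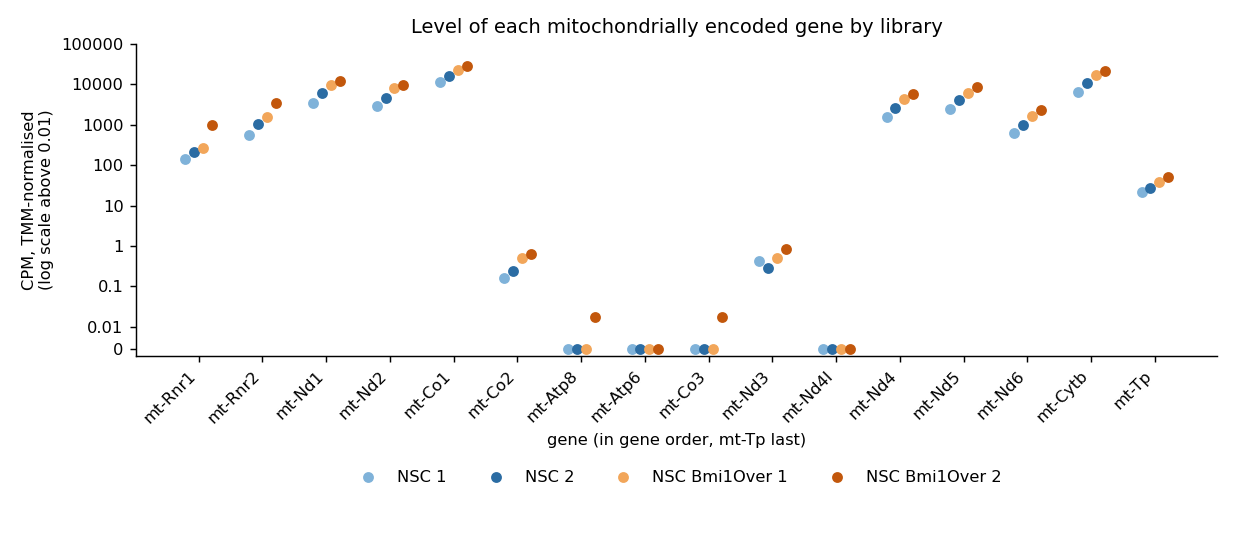
Points give the CPM of the 15 mitochondrial mRNAs and rRNAs and of mt-Tp in each of the 4 libraries, on an axis that is logarithmic above 0.01. For the 7 abundant mRNAs, both rRNAs and mt-Tp the libraries labelled NSC Bmi1Over lie above both NSC libraries, and 6 mRNAs lie below 1 CPM in every library.

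In all, 12 of the 37 genes had enough reads for the test, 9 of them protein-coding, together with both rRNAs and mt-Tp. In edgeR, 1 of these was called higher and 0 were called lower, against 2.15% of the 15521 genes tested that were called in either direction, 2.03% higher and 0.122% lower. Of the 12, mt-Co2 and mt-Nd3 reached the minimum for the test only with the counts of NSC Bmi1Over, where they were higher, and are left out of the following counts. The other 10 had at least 10 counts in every library, and among the 14174 genes for which this held, 9 of the 10 were higher at an unadjusted p under 0.05, beside 17.4% of all. The groups did not overlap, with NSC Bmi1Over higher, for all 10 and for 29.2% of these genes. The median log2 fold change of the 10 was 1.22 and that of all these genes was -0.02, and 98.6% of them had a log2 fold change below the former. The 10 come from 1 chromosome and share their precursor transcripts and libraries, so that they are not 10 separate observations.

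The number called depended on single libraries and on the test. Leaving out NSC Bmi1Over replicate 2, the deepest library, left 0 of these 10 called, with a median log2 fold change of 0.96, beside 1.15% of all genes called higher. Without NSC replicate 1, 1 was called beside 1.08% of all genes, and this was mt-Rnr1 and not mt-Tp. Without NSC replicate 2, 9 were called beside 7.34% of all genes, and without NSC Bmi1Over replicate 1, 8 were called beside 11.9%. DESeq2 called 8 of the 10, beside 9.46% of all genes, and mt-Rnr1 and mt-Rnr2 were not among the 8. With library size alone in place of TMM, 4 were called (2.23% of all genes), and with no filter on low counts 10 were called (6.63%). With DESeq2 size factors (1.49%), with at least 10 counts in every library (1.89%) and among protein-coding genes only (2.21%), 0 were called. In the sum of the strand columns 0 of the 10 were called, and 2 other mitochondrial genes were (1.86%), both of them tRNAs without unstranded counts. Neither mt-Co2 nor mt-Nd3 was called under any of the settings that tested them. DESeq2 and the filter of at least 10 counts in every library gave no test of either gene.

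Within the mitochondrial mRNAs, the shares of single genes were as follows. They are shares of uniquely mapped reads only. Of the 13 mRNAs, 6 are nearly absent from these reads, and mt-Co1 and mt-Nd4 lie partly in the copied stretch. The values are thus not shares of mitochondrial mRNA in the cells. mt-Co1 took 40.1% and 35.5% of their reads in NSC and 33.0% in both libraries labelled NSC Bmi1Over, a difference of means of -4.73 percentage points, which was -2.42 without NSC replicate 1 and -7.05 without NSC replicate 2. mt-Cytb took 22.6% and 23.7% in NSC and 24.2% and 23.6% in NSC Bmi1Over, so that the groups overlapped. mt-Nd1 took 11.7% and 13.3% in NSC against 13.8% and 13.3% in NSC Bmi1Over, and mt-Nd2 9.67% and 10.4% against 11.5% and 10.9%. mt-Nd4 took 5.31% and 5.90% in NSC and 6.13% and 6.60% in NSC Bmi1Over, in the same order of libraries as the total share. As shares of 1 sum, these values are not independent of each other and were not tested. As a share of all mitochondrial mRNA reads, mt-Co1 differed by -0.19 on the log2 scale, and by -0.10 without NSC replicate 1, while its estimate relative to all genes was above 0. For the few reads of mt-Nd3 the groups overlapped, at -0.24 on that scale and at 0.47 without NSC replicate 1.

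Scaled to gene length as RPKM (reads per kilobase of gene, relative to all counted reads), mt-Co1 was at 8203 and 10640 in NSC and at 14422 and 17680 in NSC Bmi1Over. mt-Cytb followed with an RPKM of 6252, 9603, 14275 and 17089 in the same order of libraries. mt-Nd4 had an RPKM of 1218, 1985, 2997 and 3959, and 63.6% of its length lies in the stretch with the nuclear copy. mt-Nd5, of which 7.61% of the 50-base windows recur in a nuclear chromosome, had an RPKM of 1463, 2279, 3305 and 4489. Per kilobase of the bases outside any exact nuclear match of at least 50 bases, the values were 3563, 5809, 8769 and 11581 for mt-Nd4 and 1933, 3010, 4365 and 5929 for mt-Nd5, so that the order of these 2 genes depends on the length used. On that scale mt-Co1 was at 32663, 42370, 57429 and 70402. This rests on 388 of its 1545 bases, although only 31.0% of its length lies in the chromosome 1 stretch. Reads that reach beyond a short match can still map uniquely and stay in the counts. The scale can therefore overstate genes with many short matches, such as mt-Co1.

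The ratio of mitochondrial rRNA to mitochondrial mRNA reads did not separate the groups. It was 2.35 and 2.84 rRNA reads per 100 mRNA reads in NSC and 2.61 and 5.02 in NSC Bmi1Over, with an exact two-sided permutation p of 0.667. NSC Bmi1Over replicate 2 stood apart from the other 3 libraries, and replicate 1 of that label lay between both NSC libraries. The ratio of mt-Rnr2 to mt-Rnr1 reads was 3.87 and 4.92 in NSC and 5.82 and 3.46 in NSC Bmi1Over, again with overlap. The labels name the TruSeq RNA kit but not whether poly(A) RNA was selected or rRNA removed, and how many rRNA reads a library holds depends on that step.

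Nuclear rRNA moved with the same library. CT010467.1, an rRNA gene, was at 174.0 and 304.7 CPM without TMM scaling in NSC and at 212.8 and 1603 in NSC Bmi1Over. Gm26917, which lies beside it on chromosome 17, was at 27.3 and 40.5 against 42.6 and 220.2 on the same scale. Both genes were chosen after their values were seen. The part of rRNA carried into that library in the values of mt-Rnr1 and mt-Rnr2 was not tested.

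**Figure D4:**
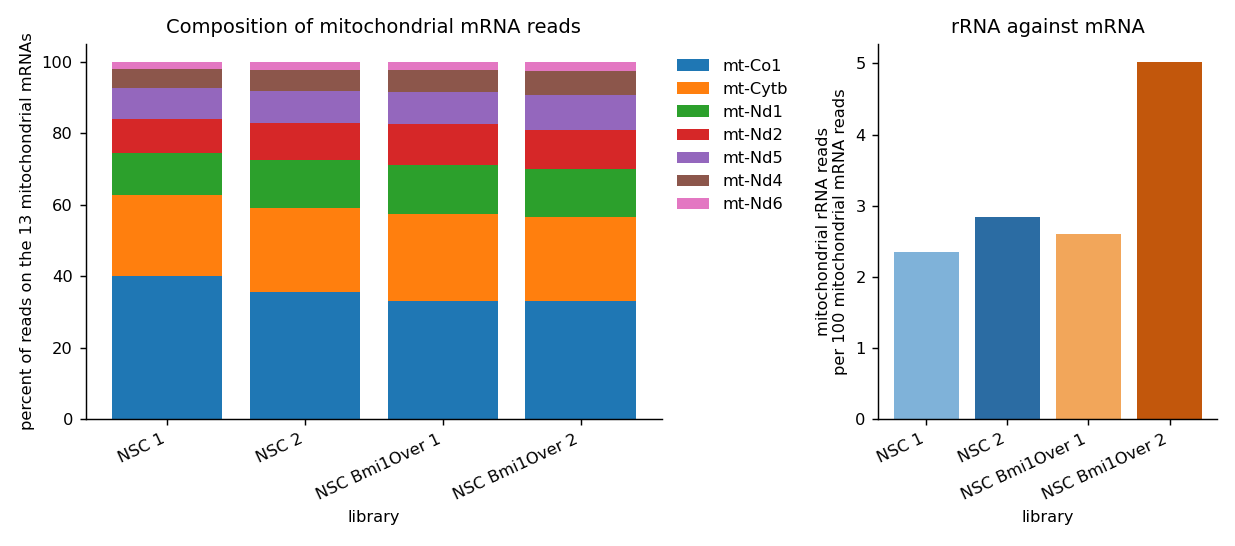
Stacked bars give each of the 7 abundant mRNAs as a percent of uniquely mapped reads on the 13 mitochondrial mRNAs in each library (left). Single bars give the mitochondrial rRNA reads per 100 mitochondrial mRNA reads (right). mt-Co1 is at 40.1% in NSC replicate 1 and 33.0% in both libraries labelled NSC Bmi1Over, and the rRNA ratio of 5.02 in NSC Bmi1Over replicate 2 exceeds the other 3, which lie between 2.35 and 2.84.

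Among the nuclear partners of the mitochondrial genes, all 80 nuclear subunits of complexes I to V were tested. None was called, beside 2.15% of all genes tested, from which a count of 0 in 80 differs little, and their median log2 fold change was -0.20. By edgeR, 5 of the 80 had an unadjusted p under 0.05, against 24.2% of all genes tested. The medians were -0.24 for the 36 subunits of complex I, -0.27 for the 4 of complex II, -0.20 for the 9 of complex III, -0.11 for the 16 of complex IV and -0.24 for the 15 of complex V. Of the 80 estimates, 76 were below 0, where 51.4% of all genes tested were below 0. These values rested on NSC Bmi1Over replicate 2, without which the median was -0.03 and 51 of the 80 were below 0, while without NSC Bmi1Over replicate 1 the median was -0.41. In complex I, the lowest was Ndufs7 at -0.38 (adjusted p = 0.124) and the highest Ndufb2 at 0.23 (adjusted p = 0.534). The estimates ran from -0.42 for Sdhc to -0.17 for Sdha in complex II, from -0.45 for Uqcrq to -0.10 for Uqcrb in complex III, from -0.53 for Cox4i2 to 0.28 for Cox6b2 in complex IV and from -0.33 for Atp5a1 to -0.07 for Atp5g3 in complex V. Over all 249 nuclear mitochondrial genes tested, edgeR called 0 higher and 2 lower, beside 2.03% and 0.122% of all genes tested, and DESeq2 called 1 higher and 7 lower, where it called 1.39% of all genes lower. In edgeR, 7 were called lower with library size alone (1.23% of all genes), 10 without a filter on low counts (1.62%), 46 without NSC Bmi1Over replicate 1 (3.63%) and 43 with the replicate number as a block (6.63%).

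Of the 37 genes of the apparatus that copies mitochondrial DNA and transcribes and matures its RNA, 0 were past the threshold in edgeR, beside 2.15% of all genes tested, and 4 had an unadjusted p under 0.05, beside 24.2%. Their median was -0.16, and -0.08 without NSC Bmi1Over replicate 2. Tfam, which packages the mitochondrial DNA and activates its transcription, was at 50.6 and 46.8 CPM in NSC and at 42.6 and 37.1 CPM in NSC Bmi1Over, a log2 fold change of -0.29 (SE 0.13, adjusted p = 0.206). Polrmt, the mitochondrial RNA polymerase, was at 37.7 and 47.2 CPM in NSC and at 51.4 and 52.4 CPM in NSC Bmi1Over, a log2 fold change of 0.29 (SE 0.14, adjusted p = 0.241) that was 0.14 without NSC replicate 1 and 0.46 without NSC replicate 2. The estimates lay between -0.14 and -0.07 for the transcription factors Tfb2m and Tefm, at 0.04 for the DNA polymerase Polg and at -0.16 for the helicase Twnk. For Lrpprc and Slirp, partners that stabilise mitochondrial mRNAs, they were -0.19 and -0.26. The extremes of the list were Mgme1, a nuclease of mitochondrial DNA, at -0.42 and Fastkd5, an RNA processing factor, at 0.36, neither of which passed the threshold.

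Of the 77 proteins of the mitochondrial ribosome tested, 0 were called in edgeR, 9 had an unadjusted p under 0.05, beside 24.2% of all genes tested, and 75 had estimates below 0, beside 51.4%, with a median of -0.26 that was -0.12 without NSC Bmi1Over replicate 2. The extremes were Mrps34 at -0.49 and Mrpl55 at 0.09. The regulators of mitochondrial biogenesis had 0 of 8 called, beside 2.15% of all genes tested, and a median of -0.11, which was -0.06 without NSC Bmi1Over replicate 2 and -0.19 without NSC Bmi1Over replicate 1, with Ppargc1a at -0.18, Nrf1 at -0.03 and Gabpa at -0.22. The lowest was Ppargc1b, a coactivator related to Ppargc1a, at -0.58 (adjusted p = 0.229) with groups that did not overlap, and the highest was the nuclear receptor Esrra at 0.07. The 16 structural proteins had 0 called, beside 2.15% of all genes tested, and a median of -0.28, the lowest being the chaperone Hspa9 at -0.40 (adjusted p = 0.196) and the highest Immt at -0.004. Without NSC Bmi1Over replicate 2 their median was -0.10.

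Among the 17 mitochondrial tRNA synthetases, 0 were called, beside 2.15% of all genes tested, 1 had an unadjusted p under 0.05, beside 24.2%, and the median was -0.02, lying between -0.12 and 0.01 with each library left out in turn. That gene was Lars2, the leucine enzyme, at 120.6 and 236.2 CPM in NSC and at 248.8 and 1052 CPM in NSC Bmi1Over, a log2 fold change of 1.87 (SE 0.57, adjusted p = 0.102). Its value in NSC Bmi1Over replicate 2 stood apart in the same way as those of mt-Rnr1 and of the nuclear rRNA gene CT010467.1. The lowest estimate was that of Nars2, the asparagine enzyme, at -0.46 (adjusted p = 0.213).

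Genes of the mitochondrial stress response had a median of -0.43, with 2 of 15 called, both lower, against 0.122% of all genes tested that were called lower. In edgeR, 12 of the 15 had an unadjusted p under 0.05 in either direction, beside 24.2% of all genes tested. Of the 15 estimates, 14 were below 0, beside 51.4% of all genes. The median lay between -0.47 and -0.39 with each library left out in turn. Atf5, a transcription factor of that response, was at 181.6 and 155.2 CPM in NSC and at 101.7 and 107.9 CPM in NSC Bmi1Over, a log2 fold change of -0.68 (SE 0.13, adjusted p = 0.0451). Chac1, an enzyme that degrades glutathione, was at 42.4 and 36.2 CPM in NSC and at 19.0 and 25.2 CPM in NSC Bmi1Over, a log2 fold change of -0.82 (SE 0.17, adjusted p = 0.0483). Both lost the call without NSC replicate 1 (adjusted p of 0.351 for Atf5 and 0.117 for Chac1), with DESeq2 size factors (0.0518 and 0.0566) and in the sum of the strand columns (0.0513 for each). Atf5 lost it also without NSC Bmi1Over replicate 2 (adjusted p = 0.0632), and Chac1 with at least 10 counts in every library (adjusted p = 0.0525). The lowest estimate of the list was that of Trib3, a pseudokinase, at -0.84 (adjusted p = 0.0793). Gdf15, a secreted stress signal, had an estimate in the other direction, at 0.55 (adjusted p = 0.0673).

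Among 3 long RNAs that stay in the nucleus, Neat1 was at 9.22 and 10.3 CPM in NSC and at 19.5 and 21.4 CPM in NSC Bmi1Over, and was called higher with a log2 fold change of 1.07 (SE 0.16, adjusted p = 0.0223). Malat1 was at 894.8 and 969.7 CPM in NSC and at 1127 and 1173 CPM in NSC Bmi1Over, a log2 fold change of 0.30 (adjusted p = 0.321), and that of Kcnq1ot1 was 0.44 (adjusted p = 0.123). All 3 had groups that did not overlap, with NSC Bmi1Over higher, beside 29.0% of all genes tested, and 2.03% of all genes were called higher.

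**Figure D5:**
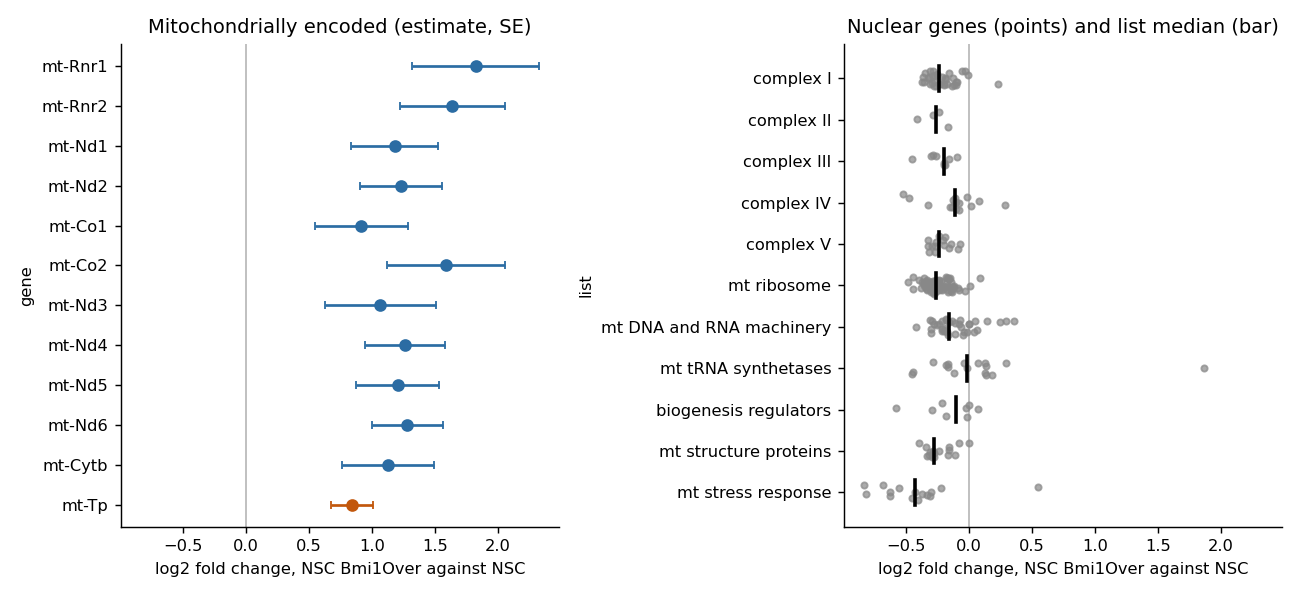
Points give the edgeR log2 fold change of NSC Bmi1Over against NSC, with bars of 1 SE, for the 12 mitochondrially encoded genes tested (left, the called gene mt-Tp in orange) and for each nuclear gene of the lists for complexes I to V, the mitochondrial ribosome, the DNA and RNA machinery, tRNA synthetases, biogenesis regulators, structural proteins and the stress response, with the list median as a black bar (right). The mitochondrial estimates lie between 0.84 and 1.82, and the medians of the nuclear lists between -0.43 and -0.02.

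The deposited H3K27me3 peak lists also held peaks on the mitochondrial chromosome. Mitochondrial DNA is packaged by Tfam and not by histones. With 1 library per condition there is no replicate check and no test. In NSC, 2 of the 12982 peaks were mitochondrial, at chrM:27-6411 with a fold enrichment of 9.15 and at chrM:10911-16299 with one of 10.0. Of the peaks in that list, 84 had a higher fold enrichment than the former and 58 than the latter. In NSC Bmi1Over, 3 of the 6810 peaks were mitochondrial, at chrM:39-1520, chrM:1977-5850 and chrM:10980-16244, with fold enrichments of 5.73, 5.37 and 6.64. In that list 1106, 1740 and 290 peaks had a higher fold enrichment than these, in the same order.

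In both lists the middle of the chromosome was free of peaks. The gap ran from 6412 to 10910 in NSC and from 5851 to 10979 in NSC Bmi1Over, while the stretch with the copy on chromosome 1 runs from 6394 to 11042. The first edge in NSC thus lay 18 bases and the second 132 bases inside that stretch. Peaks covered 3.23% of the stretch and 99.8% of the rest of the chromosome in NSC, and 1.36% and 90.6% in NSC Bmi1Over. Multi-mapped ChIPSeq reads had been discarded by the authors, and no peak of either list overlapped the nuclear copy on chromosome 1. The genes without peaks, from mt-Ts1 to mt-Nd4l, include the 6 protein-coding genes with under 50 RNASeq counts. At the promoters of the 80 nuclear subunits of complexes I to V, within 5 kb, 0 genes had a peak in either list, beside 7.19% of the 15481 nuclear genes tested in NSC and 3.06% in NSC Bmi1Over. Of all 250 nuclear mitochondrial genes, 3 had one in NSC, namely Fars2, Hsd17b10 and Mrpl20, and Fars2 alone in NSC Bmi1Over.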

How the data were processed

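For RNASeq, the authors used Trim Galore for trimming and STAR for alignment to mm10, and the deposited values are raw counts of uniquely mapped reads per gene. Per the labels and methods, ChIPSeq reads were aligned with Bowtie2 2.3.4, multi-mapped reads were discarded and broad peaks were called with MACS2 without its dynamic background. The deposited peak values used here are the fold over background (a ratio) and the −log10 q-value. The deposited −log10 p-value was not used. The annotation used for counting is not given in the sources used here. Column 2, the unstranded counts, was used, and the opening lines of each file (unmapped, multi-mapped, no feature, ambiguous) stayed out of library sizes, leaving 65.9% to 72.2% of all reads.

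Of the 50686 identifiers, 50462 matched GENCODE vM21, whose chrM is the mitochondrial chromosome of the files. Counts of the 15521 genes kept by filterByExpr were normalised by TMM (factors 0.932 to 1.08) and tested with the quasi-likelihood F-test of edgeR 4.0.16 in R 4.3.3, without the replicate number, and called at 0.05 after Benjamini-Hochberg adjustment over all genes tested. The SE is the log2 fold change divided by the square root of F. The test, and the search for exact nuclear matches of the mitochondrial sequence (seeds of 25 bases, windows of 50 bases, GRCm38.p6), were tested on simulated data. p-values measure the spread between cultures. Intervals and limits for counts of 0 (3 counts) cover counting error only.

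The 37 genes and the nuclear lists were chosen with earlier results of these data known. Genes named are all mitochondrial mRNAs and rRNAs, the tRNAs with most counts, the most abundant genes per library, Bmi1, called genes and the extremes of each nuclear mitochondrial list, set regulators of mitochondrial transcription, nuclear-retained RNAs and genes on nuclear copies. mGIC samples were not analysed here.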

Additional observations from a re-analysis of the deposited data

Results flagged for a closer look

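The separate columns of the count files for each strand, which the comparisons above did not use, held reads for tRNAs that were at 0 in the unstranded column. Of the 20 tRNAs at 0 there, 10 had reads in the strand columns and 10 had none. In the sum of both strand columns mt-Te, the glutamate tRNA, had 288 and 454 reads in NSC and 608 and 3283 in NSC Bmi1Over, or 9.22 and 17.3 against 31.6 and 50.1 CPM without TMM scaling, and was called higher with a log2 fold change of 1.79 (SE 0.32, edgeR adjusted p = 0.0407). mt-Ty, the tyrosine tRNA, had 97 and 141 reads against 177 and 809, or 3.10 and 5.39 against 9.20 and 12.4 on that scale, and was called higher with a log2 fold change of 1.52 (SE 0.30, edgeR adjusted p = 0.0476). By these counts 1.86% of the 16824 genes tested were called higher. Both tRNAs lie on the minus strand beside an abundant mRNA of the plus strand, mt-Cytb and mt-Co1, from whose reads they cannot be told apart in libraries without strand information. mt-Tp was not called there (adjusted p = 0.0513), nor were mt-Tw (adjusted p = 0.0931), mt-Ta (adjusted p = 0.0847), mt-Tq (adjusted p = 0.135) and mt-Tt (adjusted p = 0.0851). Neither mt-Te nor mt-Ty had a counted read that overlapped it alone, as such a read would stand in the unstranded column. Their reads thus also overlapped a neighbouring gene. Which transcripts these reads come from was not tested.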

How the results depend on the processing

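The 10 mitochondrial genes with at least 10 counts in every library kept a positive log2 fold change against all genes in each alternative, of which that with protein-coding genes only tested 7 of them, and the number of mitochondrial genes called changed. Higher and called were 8 under DESeq2, 0 with DESeq2 size factors in edgeR, 4 with library size alone, 10 without a filter on low counts, 0 with at least 10 counts in every library, 2 in the sum of the strand columns and 0 among protein-coding genes only, which leaves out mt-Tp. Genes called over the whole table numbered 1488 under DESeq2, 537 with library size alone and 2356 without a filter. Nuclear mitochondrial genes called higher and lower numbered 1 and 7 under DESeq2 (beside 9.46% and 1.39% of all genes) and 2 and 10 without a filter (6.63% and 1.62%). Those called lower were 0 with DESeq2 size factors (0.0773% of all genes), 7 with library size alone (1.23%), 1 with at least 10 counts (0.0988%) and 0 in the strand columns (0.0951%). Within the mitochondrial mRNAs, mt-Co1 turned to -0.19 and mt-Nd3, with groups that overlapped, to -0.24. Without the genes of which over 10% of the windows have a nuclear copy, the share of mt-Cytb in NSC Bmi1Over changed by -1.43 percentage points instead of 0.77. Library size alone placed the median of all genes at -0.17 and that of the 10 at 1.07, and 64.4% of its calls were higher, against 94.3% with TMM. The causes were not tested.

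With each culture left out in turn, a lone culture being assumed to vary like the other group, genes called ranged from 176 to 2546, mitochondrial genes called higher from 0 to 9, the median log2 fold change of those 10 from 0.90 to 1.63, nuclear mitochondrial genes called higher from 0 to 2 (all genes 1.08% to 11.9%) and lower from 0 to 46 (all genes 0.0252% to 3.63%), and the median of the subunits of complexes I to V from -0.41 to -0.027. The difference in the mitochondrial share ranged from 2.92 to 4.68 percentage points, that in the log2 ratio of rRNA to mRNA from 0.01 to 0.96, and the changes in the share of mRNA reads from -7.05 to -2.42 for mt-Co1, 0.24 to 1.31 for mt-Cytb and 0.46 to 1.05 for mt-Nd4.

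With the replicate number as a block, 3459 genes were called, 10 mitochondrial genes among them, all higher, and 2 nuclear mitochondrial genes higher and 43 lower, where 15.7% of all genes tested were called higher and 6.63% lower. The replicates share only a number, the differences between replicates correlating at 0.17 over genes. With 2 pairs this does not pair the samples.

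With 2 cultures per group and uneven depth, single genes are measured with little precision. Mitochondrial genes within the nuclear copy have too few unique reads for any statement on their level.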
